A study of Rattus norvegicus with 18 samples.

Results

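The perilipins and the enzymes and regulators of lipid droplet lipolysis were followed in the extensor digitorum longus (EDL) of 18 adult female rats of the Sprague-Dawley strain. The EDL is a hindlimb muscle made mostly of fast fibres. The 10 genes listed were the perilipins Plin2, Plin3, Plin4 and Plin5, the lipases Pnpla2, Lipe and Mgll, the lipase regulators Abhd5 and G0s2, and the droplet protein Cidea. They were matched by gene symbol to probe sets with a single symbol in the probe table of the array. A probe set was found for 9 of the 10 genes, and Plin3 was not analysed here. All 9 passed a filter on low values and stand among 12642 genes tested, each measured by its probe set of highest mean. Lipe had a second probe set, which is described separately.

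The females were of the second filial generation (F2), and the diets of grandfather and granddaughter were crossed. The high-fat/high-fat group (4 animals) had grandfathers fed a high-fat diet and ate a high-fat diet themselves, and the high-fat/chow group (4 animals) had high-fat-fed grandfathers and ate chow. The chow/high-fat group (5 animals) had chow-fed grandfathers and ate a high-fat diet, and the chow/chow group (5 animals) had chow-fed grandfathers and ate chow. The own diet lasted 12 weeks, and in the high-fat diet 42/45% of the energy came from fat. Each array carried RNA of whole muscle from 1 animal, so fewer cells of a type and less RNA per cell cannot be told apart. The labels do not give the number of founding males of a lineage, so related animals may have been counted as independent in comparisons of the grandpaternal diet, and those p-values may be too small. The number of arrays limits the precision.

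A muscle fibre stores triglyceride in lipid droplets, which are coated by perilipins and lie beside the mitochondria that oxidize the fatty acids. Lipolysis runs in steps: the lipase encoded by Pnpla2 (adipose triglyceride lipase) removes the first fatty acid, hormone-sensitive lipase, encoded by Lipe, acts mainly on the diglyceride, and monoglyceride lipase, encoded by Mgll, releases glycerol. The protein of Abhd5 activates the first lipase and that of G0s2 inhibits it, while Plin5 tethers droplets to mitochondria and binds both the lipase and its activator. Many of these genes are known targets of the fatty acid receptors of the PPAR family.

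Levels are given as log2(intensity + 16), quantile normalized between arrays after the log was taken. On this scale a difference of 1 is a doubling of intensity plus the offset. The deposited array medians ran from 55.02 to 73.97. They ran from 67.52 to 73.97 in the high-fat/high-fat animals, against 55.02 to 66.45 in the chow/high-fat animals, without overlap. They ran from 60.21 to 70.66 in the high-fat/chow animals, against 66.29 to 70.52 in the chow/chow animals, with overlap. Among high-fat-fed females the brightness of the arrays thus differed with the grandpaternal diet. As a check of the tissue, all 10 measured fast-fibre genes had high levels, with means from 12.2 for Myh2 to 13.2 for Acta1. The fast-fibre genes Myh4, Myh1, Mylpf and Atp2a1 had no probe set with a single symbol. Slow-fibre genes were also present, with means from 6.39 for Myh7b to 11.3 for Myl3. Most fat cell markers were low but present. The deposited intensity of Adipoq, the fat cell hormone adiponectin, ran from 32.2 to 163.8, and that of Lep, which did not pass the filter, from 15.6 to 29.3. Fabp4 was the brightest fat cell marker of the list, with a deposited intensity from 259.0 to 538.5 and a mean level of 8.67. Ucp1, the defining gene of brown fat cells, did not pass the filter either, with 9.99 to 18.9.

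Plin4 and Plin5 are neighbours in the rat genome, on 1 strand with no annotated gene between them, and their promoters are shown because these neighbours had unlike differences between the own diets. Each window runs from 250 bases before to 50 bases after the annotated start, from RefSeq on build GRCr8, and the first of 5 windows of Plin4 is given. Capitals mark AGGTCA or its reverse complement, the half-site that nuclear receptors such as the PPARs recognise.
Plin5 (chr9:1033235-1033534, minus strand): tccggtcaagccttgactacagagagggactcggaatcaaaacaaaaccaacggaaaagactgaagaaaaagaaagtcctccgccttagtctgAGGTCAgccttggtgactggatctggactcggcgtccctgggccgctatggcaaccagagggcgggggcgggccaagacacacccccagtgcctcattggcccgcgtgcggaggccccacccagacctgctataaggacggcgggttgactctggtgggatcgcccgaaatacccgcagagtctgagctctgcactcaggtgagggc
Plin4 (chr9:1025200-1025499, minus strand): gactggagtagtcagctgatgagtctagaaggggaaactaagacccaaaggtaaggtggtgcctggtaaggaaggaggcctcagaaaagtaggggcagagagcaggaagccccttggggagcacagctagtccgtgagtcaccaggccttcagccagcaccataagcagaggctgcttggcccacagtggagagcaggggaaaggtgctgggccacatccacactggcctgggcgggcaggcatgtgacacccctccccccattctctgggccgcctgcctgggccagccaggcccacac
The Plin5 window held 1 half-site, at position -157 from the start, and none of the 5 Plin4 windows held one. Windows were found for 9 of the 10 genes, with Plin3 among them and Lipe not. Of their 14 windows, the single ones of Plin5, Abhd5 and G0s2 held a half-site, and 16.2% of all 33469 windows held one. The direct repeat DR1, AGGNCA and AGGNCA with 1 base between, searched on both strands, was in none of the 14 windows of these genes and in 0.415% of all windows. A match is a description of the letters only.

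The own high-fat diet went with higher levels of most of these genes, Plin5 above all, though none passed the test across all genes. Averaged over both lineages, 8 of the 9 genes were higher in high-fat-fed than in chow-fed females, with a median log2 difference of 0.26, against 48.3% of all genes higher and a median of -0.0028. At an unadjusted limma p under 0.05, 5 of the 9 were higher (Plin5, Pnpla2, Lipe, G0s2 and Cidea) and 0 were lower, where 3.29% of all genes were higher and 3.44% lower at that limit. The genes were chosen with earlier results of these data known, so counts of them, here and below, are a description and no independent support. None of the 9 passed after adjustment over all genes, and 2 genes in all, 0.0158%, did.

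Plin5, the perilipin of oxidative tissues, had the largest averaged difference of the 9. Its level was 8.24, 8.90, 7.99 and 7.62 in the high-fat/high-fat animals, against 7.34, 7.18, 6.99 and 6.99 in the high-fat/chow animals. It was 8.60, 7.80, 8.17, 8.09 and 7.60 in the chow/high-fat animals, against 8.09, 7.42, 7.37, 7.03 and 7.47 in the chow/chow animals. The groups did not overlap in the high-fat lineage, where 2.06% of all genes were higher without overlap. In the chow lineage 1 chow-fed animal lay among the high-fat-fed ones. Each of the 9 high-fat-fed animals exceeded the chow-fed mean of its own lineage. The averaged difference was 0.82 (SE 0.16, 95% confidence interval 0.48 to 1.15, 1.76-fold), the 8th smallest p of 12642 genes, with a limma adjusted p of 0.0985 (0.0109 to 0.225 over the alternative settings). By lineage the difference was 1.06 (SE 0.24, 2.08-fold, adjusted p = 0.245) in the high-fat lineage and 0.58 (SE 0.21, 1.49-fold, adjusted p = 0.995) in the chow lineage. The test of the difference between the lineages gave 0.48 (SE 0.32, 95% confidence interval -0.19 to 1.16, adjusted p = 0.789). That interaction was 0.77 with the values as deposited, 0.14 with the slow-fibre score described below as a covariate, and 0.25 to 0.67 without each animal in turn.

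The averaged Plin5 difference came close to the threshold and crossed it in some settings. It was called with the number in the closing code of each title as a block (0.87, limma adjusted p = 0.0459), with neighbouring animal numbers as a random block (0.81, adjusted p = 0.0459) and once replicate 4 of the high-fat/high-fat group was left out (0.91, adjusted p = 0.0253). The labels explain neither number: the closing code is a letter with 5, 7 or 9, some codes occur on more than 1 array, and what they mark is unknown. Of the animals with neighbouring numbers, 8 pairs joined a high-fat-fed and a chow-fed female of 1 lineage. Plin5, Pnpla2 and Lipe were higher in the high-fat-fed animal in 8 of 8 pairs, G0s2 in 7, Plin2 and Cidea in 6, Plin4 and Mgll in 5 and Abhd5 in 4. The share of all genes with such counts was not computed, so they are a description only. Among arrays with code numbers 5, 7 and 9 the Plin5 difference was 0.86, 0.38 and 1.57, the last from the high-fat lineage alone. These sets held 3, 4 and 2 high-fat-fed animals, against 5, 2 and 2 chow-fed animals. In the set of code number 9 only high-fat/chow replicate 4 was a chow-fed animal of the high-fat lineage. In the same sets the difference was 0.39, 0.084 and 0.85 for Lipe, 0.14, 0.050 and 0.44 for Pnpla2, and 0.61, 0.46 and 1.05 for G0s2. For Cidea it was 0.48, -0.10 and 0.62. In the set of code number 7 it was 0.12 in the chow lineage and -0.32 in the high-fat lineage. The latter compares only high-fat/high-fat replicate 4 with high-fat/chow replicate 1.

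**Figure D1:**
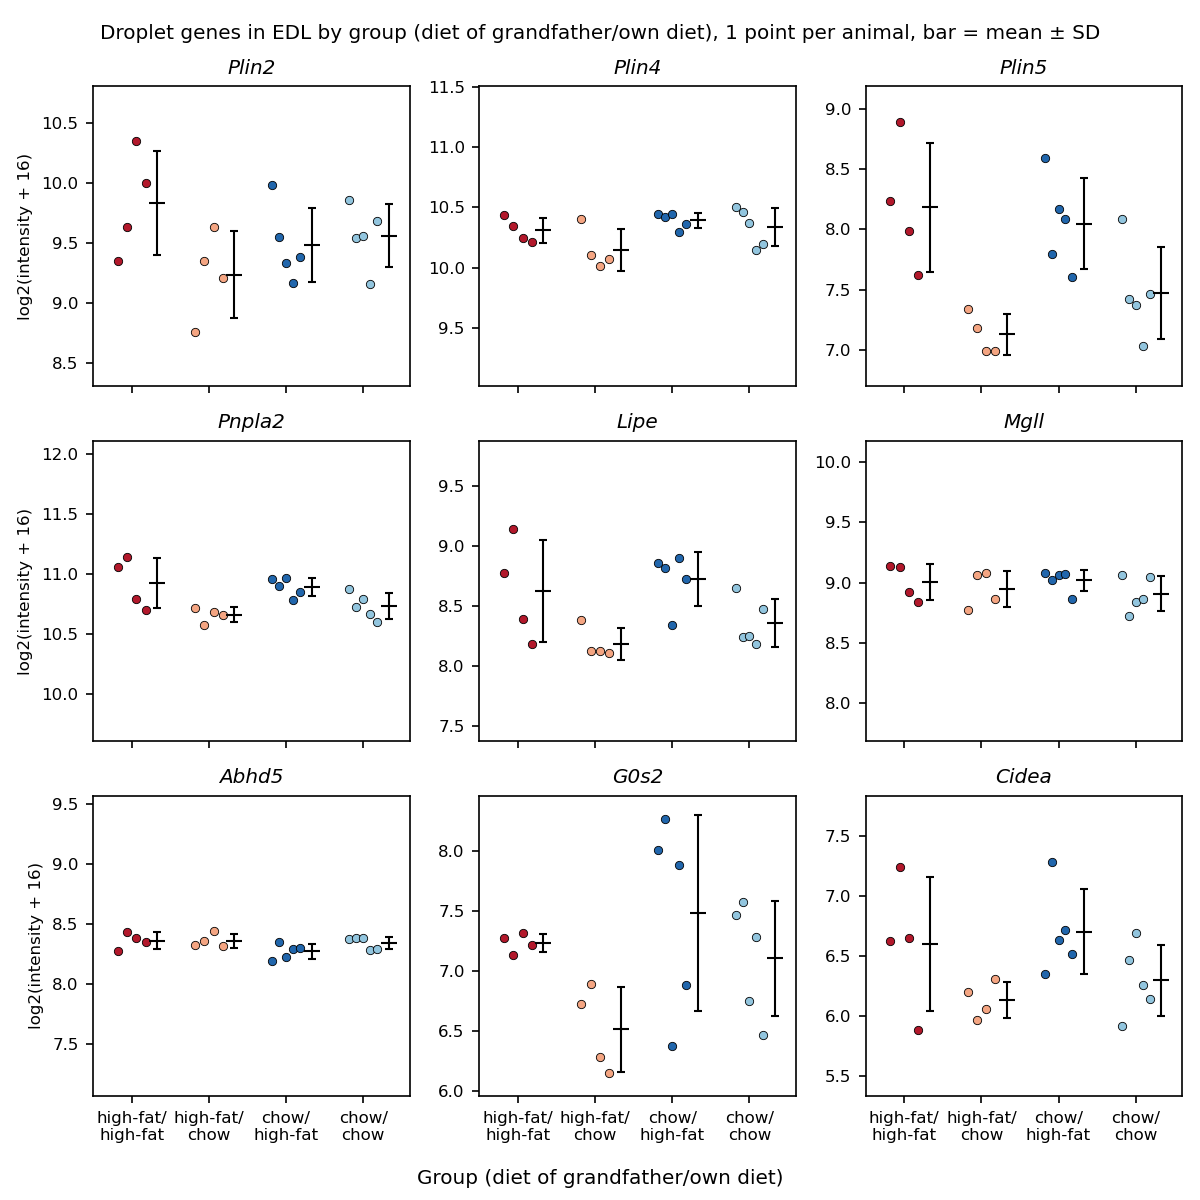
Level of each gene as quantile normalized log2(intensity + 16) (vertical axis, the same span in every panel) in the 4 groups, labelled with the grandfather's diet first and the own diet second. Points are animals and bars are the mean and SD; Plin5 and G0s2 are the genes whose high-fat/high-fat animals all lie above the high-fat/chow animals, and Abhd5 spans the narrowest range.

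Among the other perilipins, Plin2, which coats droplets in most tissues, was 9.35, 9.64, 10.35 and 10.00 in the high-fat/high-fat animals, against 8.76, 9.35, 9.63 and 9.21 in the high-fat/chow animals. In the chow lineage it was 9.98, 9.55, 9.33, 9.17 and 9.39 in the high-fat-fed animals, against 9.86, 9.55, 9.56, 9.16 and 9.69 in the chow-fed animals. The groups overlapped in both lineages. Plin2 differed by 0.60 (SE 0.21, adjusted p = 0.432) with the own diet in the high-fat lineage and by -0.078 (SE 0.19, adjusted p = 0.9996) in the chow lineage. The difference between these, 0.68 (SE 0.28, 95% confidence interval 0.083 to 1.27), had the only unadjusted limma p under 0.05 among the 9 genes for the interaction (0.0275, adjusted p = 0.688), and 3.57% of all genes had a positive interaction under that limit, with 0% past adjustment. Plin4, a perilipin of fat and muscle, spanned 10.02 to 10.50 over all animals and differed by 0.11 (SE 0.062, adjusted p = 0.802) with the own diet averaged over lineages.

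Of the lipases, Lipe on its brighter probe set was 8.77, 9.14, 8.39 and 8.18 in the high-fat/high-fat animals, against 8.38, 8.12, 8.13 and 8.11 in the high-fat/chow animals. It was 8.86, 8.82, 8.34, 8.90 and 8.72 in the chow/high-fat animals, against 8.65, 8.24, 8.25, 8.18 and 8.47 in the chow/chow animals. The groups overlapped, and 7 of 9 high-fat-fed animals lay above their chow-fed mean. The averaged difference was 0.40 (SE 0.11, 1.32-fold, adjusted p = 0.343), with 0.44 in the high-fat lineage (0.26 without high-fat/high-fat replicate 2) and 0.37 in the chow lineage (0.22 with the values as deposited). Pnpla2 was 11.06, 11.14, 10.79 and 10.70 in the high-fat/high-fat animals, against 10.72, 10.57, 10.69 and 10.66 in the high-fat/chow animals. It was 10.96, 10.90, 10.97, 10.78 and 10.85 in the chow/high-fat animals, against 10.87, 10.73, 10.79, 10.67 and 10.60 in the chow/chow animals. All 9 high-fat-fed animals were above their chow-fed mean, and the averaged difference was small against that of Plin5, at 0.21 (SE 0.060, 1.16-fold, adjusted p = 0.343). Mgll, which acts last, differed by 0.086 (SE 0.063, adjusted p = 0.850).

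Of the regulators of the first lipase, the inhibitor G0s2 was 7.27, 7.13, 7.31 and 7.21 in the high-fat/high-fat animals, against 6.72, 6.89, 6.29 and 6.15 in the high-fat/chow animals. It was 8.01, 8.27, 6.37, 7.88 and 6.88 in the chow/high-fat animals, against 7.46, 7.57, 6.75, 7.28 and 6.46 in the chow/chow animals. The groups did not overlap in the high-fat lineage, where G0s2 and Plin5 were the 2 such genes of the 9 and 2.06% of all genes were higher without overlap. In the chow lineage the spread was wide (SD 0.81 and 0.48 on the high-fat and chow diets), and its difference of 0.38 ran from 0.18 (chow/high-fat replicate 2 left out) to 0.65 (replicate 3 left out). The averaged difference of G0s2 was 0.55 (SE 0.22, 95% confidence interval 0.092 to 1.003, 1.46-fold, adjusted p = 0.713). Abhd5, the activator, held between 8.19 and 8.44 in all 18 animals and differed by -0.036 (SE 0.040, 95% confidence interval -0.12 to 0.048, adjusted p = 0.921).

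Cidea promotes the growth of droplets and is best known from brown fat. It was 6.62, 7.24, 6.65 and 5.89 in the high-fat/high-fat animals, against 6.20, 5.97, 6.06 and 6.31 in the high-fat/chow animals. It was 6.36, 7.29, 6.63, 6.71 and 6.52 in the chow/high-fat animals, against 5.92, 6.47, 6.70, 6.26 and 6.15 in the chow/chow animals. Of the high-fat-fed animals 8 of 9 lay above their chow-fed mean, and replicate 4 of the high-fat/high-fat group had the lowest level of all 18. The number above the chow-fed mean was also 8 for Plin4, and it was 7 for G0s2, 6 for Mgll, 5 for Plin2 and 3 for Abhd5. The share of all genes that reached such numbers was not computed, so these too are a description only. The averaged difference of Cidea was 0.43 (SE 0.15, 1.35-fold, adjusted p = 0.606), and 0.29 with an offset of 64. In the high-fat lineage its 0.46 was 0.25 without high-fat/high-fat replicate 2 and 0.70 without replicate 4.

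**Figure D2:**
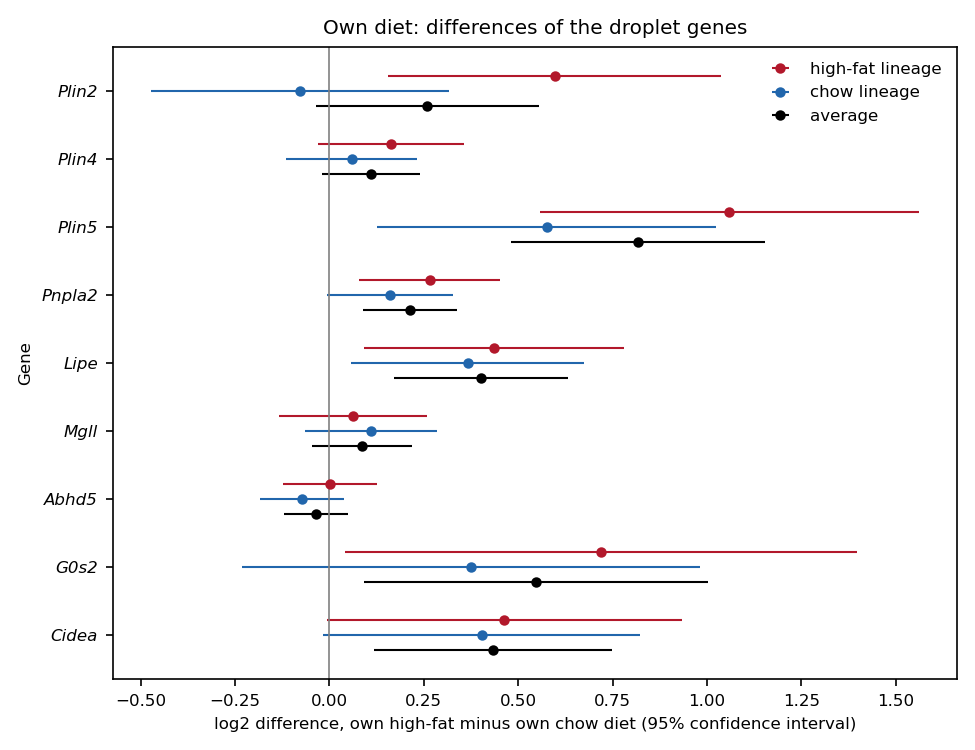
Log2 difference between own high-fat and own chow diet for the 9 genes (horizontal axis), with the 95% confidence interval of the limma fit, in the high-fat lineage, the chow lineage and averaged over both. Averaged intervals lie above 0 for Plin5, Pnpla2, Lipe, G0s2 and Cidea, and 0 of the 9 genes passed after adjustment over all genes.

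Taken by lineage, 9 of 9 genes were higher with the own high-fat diet in granddaughters of high-fat-fed males (median 0.44; 49.6% of all genes) and 7 of 9 in granddaughters of chow-fed males (median 0.16; 48.6% of all genes). Unadjusted limma p-values under 0.05 went to Plin2, Plin5, Pnpla2, Lipe and G0s2 in the high-fat lineage, against 4.86% of all genes higher at that limit, and to Plin5 and Lipe in the chow lineage, against 2.49% of all genes higher. None of the genes passed adjustment in either lineage, where 0% of all genes did, and in the chow lineage 0 of 9 were higher without overlap, against 0.419% of all genes. The interaction was positive for 8 of 9 genes, with a median of 0.10, and 51.1% of all genes had a positive interaction. None of the 9 passed for the interaction, with adjusted p-values from 0.688 to 0.978, so a difference between the lineages was not shown for any of them.

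None of the fat cell markers passed the test for the own diet. Of 9 measured markers 5 were higher and 4 lower with the own high-fat diet (median 0.023), 0 of them at an unadjusted limma p under 0.05. By lineage 2 of 9 were higher in the high-fat lineage (median -0.14) and 6 of 9 in the chow lineage (median 0.054), 1 of these, Plin1, at an unadjusted limma p under 0.05 (0.17). Over both lineages Adipoq differed by 0.030 (SE 0.19), Plin1, the perilipin of fat cells, by 0.062 (SE 0.061) and Cidec, a droplet protein of fat cells, by -0.073 (SE 0.092). The summed intensity of the 9 markers ran from 598 to 780 in the high-fat/high-fat animals, against 758 to 804 in the high-fat/chow animals. It ran from 781 to 971 in the chow/high-fat animals, against 722 to 922 in the chow/chow animals. Of 7 brown fat markers 3 were measured, Zic1, Lhx8 and Ebf2, of which 1 was higher and 2 lower (median -0.022), 0 of them at an unadjusted p under 0.05. In the high-fat lineage 2 of 3 were higher (median 0.032), 1 of them at an unadjusted limma p under 0.05, against 4.86% of all genes. In the chow lineage 3 of 3 were lower (median -0.12). Their summed intensity ran from 332 to 364 in the high-fat/high-fat animals, against 248 to 330 in the high-fat/chow animals. It ran from 236 to 485 in the chow/high-fat animals, against 302 to 386 in the chow/chow animals.

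Slow-fibre genes varied widely between animals, and Plin5 is known to be high in oxidative fibres. Their score is the mean of 14 centred log2 levels. It ran from -1.06 to 0.50 in the high-fat/high-fat animals, against -0.77 to 0.42 in the high-fat/chow animals, and from -0.66 to 0.65 in the chow/high-fat animals, against -0.097 to 0.72 in the chow/chow animals. With the own diet 13 of 14 slow-fibre genes were higher in the high-fat lineage (median 0.40) and 14 of 14 lower in the chow lineage (median -0.32), 0 of them past the test. With the score as a covariate, a fit added after the values were seen, the averaged Plin5 difference was 0.79 (limma adjusted p = 0.0109). With a score of the fat cell markers instead it was 0.83 (adjusted p = 0.148). Leukocyte markers were lower with the own high-fat diet in 9 of 9 (median -0.20) and fibroblast markers in 8 of 8 (median -0.24), 0 of either past the test across all genes. At an unadjusted limma p under 0.05, 5 of the 9 leukocyte, 5 of the 8 fibroblast and 2 of the 8 tendon markers were lower, where 3.44% of all genes were. Tendon markers were lower in 8 of 8 (median -0.24), endothelial markers in 4 of 5 (median -0.044) and fast-fibre genes in 10 of 10 (median -0.033), while red blood cell markers were higher in 4 of 4 (median 0.22), nerve markers in 2 of 4 (median 0.014; 1 of them at that limit) and immediate early genes in 9 of 10 (median 0.16), again 0 past the test. The fits with a score were added after the values were seen, and the part of these lists in the values of the 9 genes was not tested.

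**Figure D3:**
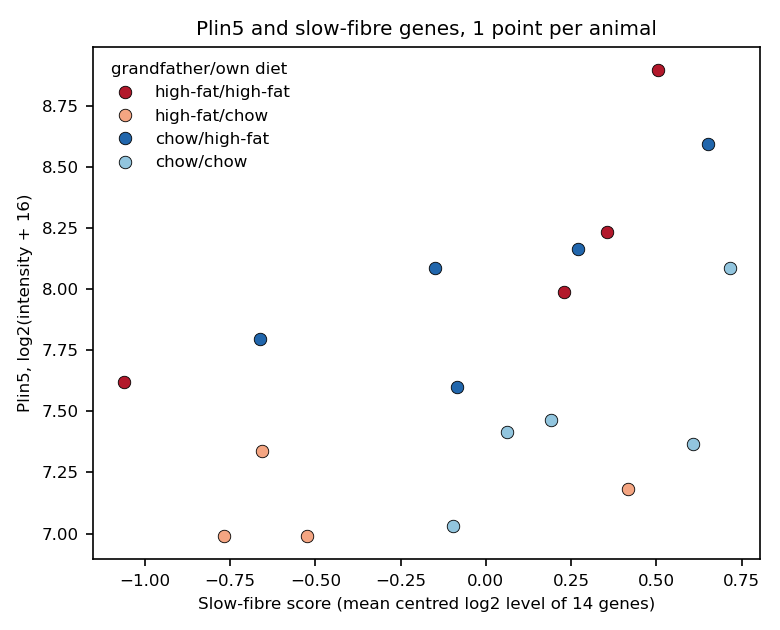
Plin5 level, log2(intensity + 16), against the slow-fibre score of each animal, with colours for the groups named by grandfather's and own diet. The highest chow-fed animal in Plin5, at 8.09, also has the highest score, and the score runs from -1.06 to 0.72.

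Over the 18 arrays, the genes whose levels were most like Plin5 by Pearson's r were Cpt2 (0.89), the inner carnitine palmitoyltransferase of mitochondria, Hsdl2 (0.89), Slc25a42 (0.89), a mitochondrial carrier of coenzyme A, Aqp7 (0.88), a glycerol channel, and Agpat2 (0.88), an acyltransferase of triglyceride synthesis. These arrays share the diets, so r was also taken after group means were removed. It was then highest for Tns1 (0.89), Epas1 (0.87), Myh7b (0.86), Coq8a (0.85) and Lpl (0.83). Among the other 8 genes, Pnpla2 and Lipe were most like Plin5 (0.87 and 0.84, and 0.72 for both after group means were removed), and Plin4 and Mgll came next after removal (0.55 and 0.56). For Plin2, G0s2, Cidea and Abhd5 r after removal lay between -0.0068 and 0.16. These values are a description, and no p was computed.

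The second probe set of Lipe (10705184) gave another pattern from the first (10719829). It read 6.14, 6.03, 6.10 and 6.07 in the high-fat/high-fat animals, against 5.71, 5.52, 5.59, 5.57 and 5.74 in the chow/high-fat animals. It read 5.66, 5.95, 6.29 and 5.91 in the high-fat/chow animals, against 5.39, 5.58, 5.91, 5.38 and 5.34 in the chow/chow animals. All high-fat/high-fat animals lay above all chow/high-fat animals, as in 2.37% of all genes, and the chow-fed groups overlapped. In a fit over all 13647 probe sets the grandpaternal diet differed by 0.45 (95% confidence interval 0.28 to 0.61, 1.36-fold, limma adjusted p = 0.0190) on this probe set, which rose with high-fat-fed grandfathers, and by -0.14 (95% confidence interval -0.37 to 0.092, adjusted p = 0.572) on the other. In that fit 66 probe sets passed, 0.484% of all. For the own diet the 2 probe sets gave 0.12 (adjusted p = 0.825) and 0.40 (adjusted p = 0.351).

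The grandpaternal difference was 0.59 larger on 10705184 than on 10719829, a gap computed after their values were seen and given as a description only. Over the 18 arrays the 2 probe sets had a Pearson's r of -0.15. The probe table gives both the gene Lipe and no position in it, and the mean of the second lay at the 38.4th percentile of probe sets with 1 symbol. The call on 10705184 was lost without high-fat/chow replicate 3 (0.39, adjusted p = 0.0559), when the 2 dimmest arrays by median were dropped (0.46, adjusted p = 0.0540) and with the array median as a covariate (0.44, adjusted p = 0.105). Its difference was 0.62 with an offset of 1 and 0.24 with an offset of 64. The deposited array medians were also higher, without overlap, in the high-fat/high-fat than in the chow/high-fat animals.

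**Figure D4:**
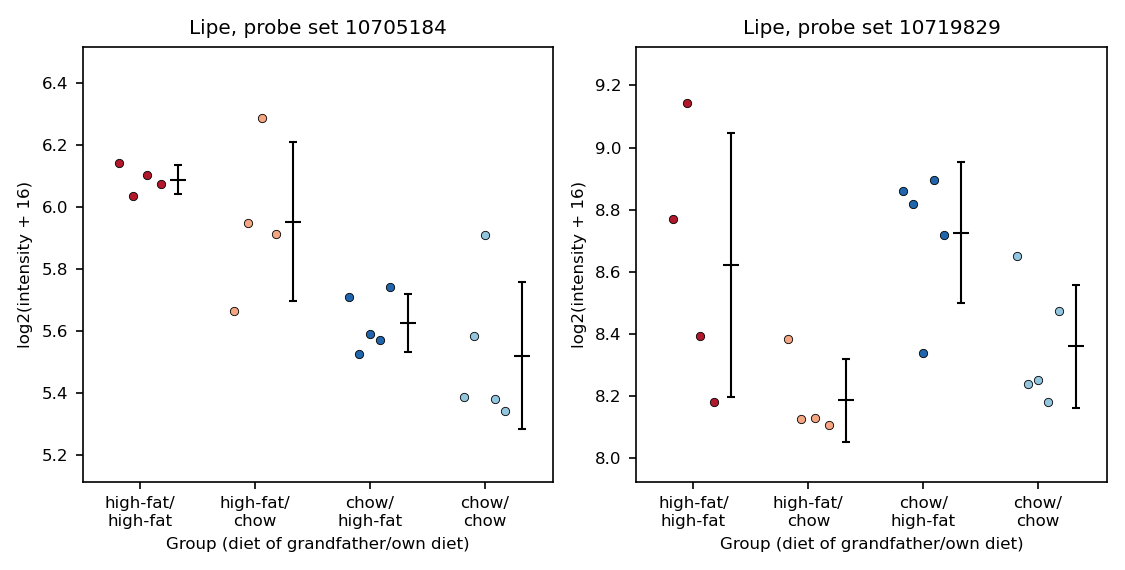
Levels of the 2 probe sets of Lipe, log2(intensity + 16), by group, with 1 point per animal and the mean and SD. On 10705184 the group means are higher with high-fat-fed grandfathers, at 6.09 and 5.95, against 5.63 and 5.52 with chow-fed grandfathers. On 10719829 the means are higher in high-fat-fed females, at 8.62 and 8.73, against 8.19 and 8.36 in chow-fed females. Single animals overlap on both probe sets.

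For the grandpaternal diet, 6 of the 9 genes were lower in the high-fat than in the chow lineage when averaged over own diets (median -0.11), while 48.8% of all genes were higher. None passed, where 0.198% of all genes did. Plin4 had the one unadjusted limma p under 0.05 (-0.14, SE 0.062, adjusted p = 0.314), against 6.89% of all genes lower at that limit. G0s2 differed by -0.42 (SE 0.22, adjusted p = 0.381) and Plin5 by -0.11 (SE 0.16, adjusted p = 0.801). In chow-fed females 7 of 9 genes were lower in the high-fat lineage (median -0.17; 49.5% of all genes were higher), with -0.59 for G0s2, -0.35 for Plin5, -0.32 for Plin2 and -0.19 for Plin4 (adjusted p-values from 0.563 to 0.963 over the 9). With the slow-fibre score as a covariate that of Plin5 was -0.0018, and without 1 animal that of Plin2 ran from -0.46 to -0.17. Plin4, which ran from 10.02 to 10.40 in the high-fat/chow animals, against 10.15 to 10.50 in the chow/chow animals, alone had an unadjusted p under 0.05, against 4.41% of all genes lower at that limit, and 0.00791% passed adjustment. In high-fat-fed females 5 of 9 were lower (median -0.011), from -0.25 for G0s2 to 0.35 for Plin2, 0 of them at an unadjusted p under 0.05, against 13.3% of all genes, where 50.4% of all genes were higher and 0% passed adjustment. Slow-fibre genes were lower in the high-fat lineage in 11 of 14 (median -0.35), and in 13 of 14 among chow-fed females (median -0.69), 0 of them past the test. At an unadjusted limma p under 0.05, 4 and 6 of the 14 were lower in these comparisons, against 6.89% and 4.41% of all genes. With the slow-fibre score as a covariate the averaged grandpaternal difference of Plin5 was 0.067. These comparisons share animals with those of the own diet.

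Genes around the droplet were taken from lists of the same pathway for the averaged own diet. Of 12 measured genes of droplet coats and biogenesis 6 were higher (median -0.0033). Fitm2, which helps droplets to form, differed by 0.20 (SE 0.082) and was the only one at an unadjusted limma p under 0.05. Of 13 genes of lipolysis control and other neutral lipases 7 were higher (median 0.0078), and Abhd6, a further monoglyceride lipase, differed by 0.12 (SE 0.047). The list holds hormone receptors, kinases and further lipases.

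Of 12 triglyceride synthesis genes 8 were higher (median 0.060), and Agpat2 (0.64, SE 0.18), Gpam (0.28, SE 0.13) and Dgat1 (0.17, SE 0.050) had an unadjusted limma p under 0.05. These encode an acyltransferase of lysophosphatidate, the mitochondrial glycerol-phosphate acyltransferase and an enzyme of the last step to triglyceride. Of 8 PPAR genes and partners 5 were higher (median 0.032), and Ppargc1b, a coactivator, differed by 0.17 (SE 0.074). In these 4 lists 0 genes passed adjustment over all genes.

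Further genes that muscle is known to turn up when fatty acids are supplied were mostly higher too. This list was drawn up with results of these data known, so its counts are a description and no independent support. Of 19 measured, 18 were higher (median 0.28), 14 at an unadjusted limma p under 0.05 and 1, Decr1 (0.59), past adjustment (adjusted p = 0.0328). The others at that limit were Angptl4 (0.62), a lipoprotein lipase inhibitor, Mlycd (0.49), Acot2 (0.44), Acaa2 (0.43), Ech1 (0.36), Slc25a20 (0.34), Pdk4 (0.29), Cat (0.28), Etfdh (0.27), Acot1 (0.26), Hadha (0.26), Hadhb (0.22) and Cpt1b (0.20). Most of these encode enzymes of fatty acid oxidation in mitochondria and peroxisomes. The difference of Plin5, at 0.82, was larger than that of each of these 14 genes, a comparison of sizes with no test.

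**Figure D5:**
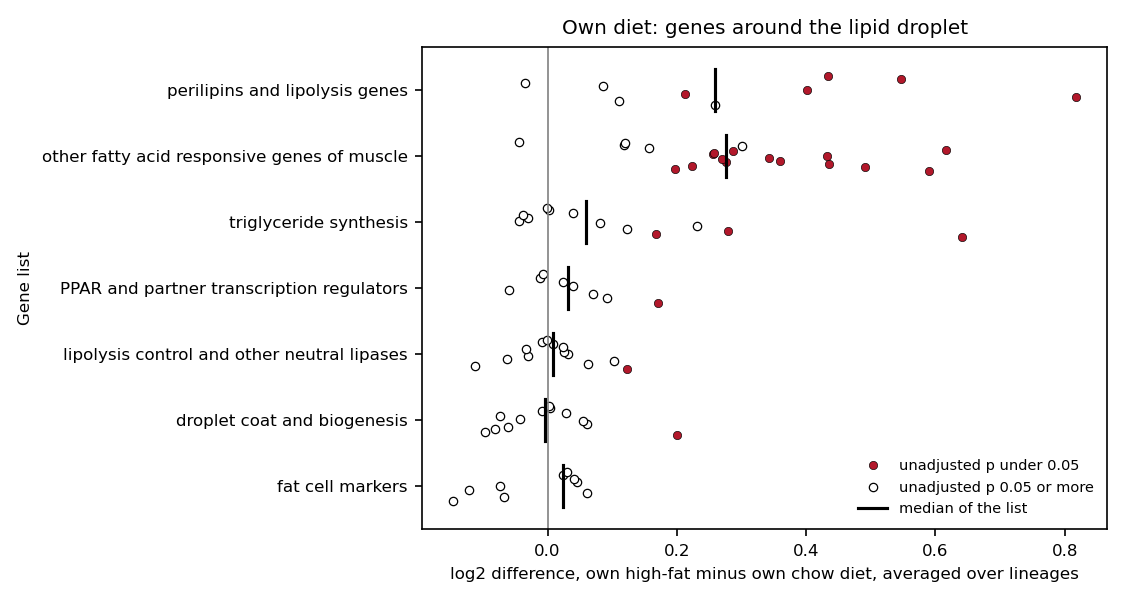
Log2 difference between own high-fat and own chow diet, averaged over lineages (horizontal axis), for each measured gene of 7 lists, drawn up with results of these data known; filled points have an unadjusted limma p under 0.05 and bars are list medians. The perilipin and lipolysis genes and the other fatty acid responsive genes have medians of 0.26 and 0.28, and the other lists have medians from -0.0033 to 0.060.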

How the data were processed

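RNA of EDL muscle (200 ng) was hybridised to Affymetrix whole-transcript arrays, 1 per animal. The deposited intensity values are linear probe set signals made with PLIER in Affymetrix Expression Console, per the submitters' processing notes; versions and settings are not given in the sources used here. Of 20917 probe sets, 18197 had 1 gene symbol, 960 several and 1760 none. First log2(intensity + 16) was taken, and these log values were then quantile normalized between arrays. The 1 probe set of highest mean was kept per gene, and genes with a mean above the 25th percentile (5.28) were tested, 12642 in all. Symbols were set against RefSeq and 0 changed. limma 3.58.1 in R 4.3.3 fitted the 4 group means over 18 arrays, gave 7 two-sided comparisons, and p-values were adjusted by Benjamini-Hochberg over all genes with a threshold of 0.05. A second fit took all 13647 probe sets. No 2 arrays of a group held the same values (smallest SD of a pair's log2 differences 0.19). Nothing in the labels says whether animals of a group were littermates.

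The members and gene lists were chosen with earlier results of these data known. The text names every member, the pathway list genes with an unadjusted p under 0.05 for the averaged own diet, a few cell type markers and the 5 genes most like Plin5 by each measure. Plin1 and Cidec were named after their values were seen. Alternatives changed the normalization, offset, filter, probe sets, weights, blocks and samples.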

Additional observations from a re-analysis of the deposited data

Results flagged for a closer look

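In 2 of 40 groups of 4 or 5 animals, over 10 probe sets, 1 animal lay far from the others by Dixon's test, and chance gives about 1 in 20. The Lipe probe set 10719829 was 8.38 in high-fat/chow replicate 1, the highest of its group, where the other 3 animals ran from 8.11 to 8.13. Mgll was 8.87 in chow/high-fat replicate 5, the lowest of its group, where the other 4 animals ran from 9.02 to 9.08.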

How the results depend on the processing

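The labels name no pairs of animals, so the main fit was not paired. Neighbouring animal numbers, whose meaning the labels do not give, were used as a random block in an alternative fit. Of 2336 alternative values of single genes, 2242 kept their direction and their side of the threshold, 8 passed it, 3 fell short of it and 83 changed sign. The number of the 9 genes called for the averaged own diet was 0, and 1 (Plin5) with the code number of the title as a block, with neighbouring animal numbers (16 animals, correlation 0.13) and with the slow-fibre score as a covariate, and 0 to 1 without each animal in turn. For the grandpaternal diet in high-fat-fed females it was 1 (Abhd5, 0.34, limma adjusted p = 0.0292) with the values as deposited, where 1689 genes were called. The deposited array medians of the groups compared there did not overlap, and their part in these calls was not tested. The call on the Lipe probe set 10705184 was lost with the array median in the model (0.44) and after the 2 dimmest arrays were dropped (0.46), and its difference was 0.39 to 0.50 without each animal in turn, lost without high-fat/chow replicate 3, and 0.24 to 0.62 over all settings, the lowest with an offset of 64 and the highest with an offset of 1.

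Counts over all genes were unstable. For the averaged own diet 2 genes were called, with 4 as deposited, 5 with arrays centred on medians or with trended robust eBayes, 6 with an offset of 64 or array weights, 15 with the code number, 14 with neighbouring numbers or the slow-fibre score, and 0 with the array median or the fat cell score as a covariate, an offset of 1 or without the 2 lowest arrays, and 0 to 14 without each animal. In the chow lineage 0 were called, with 1 as deposited and 2 with the slow-fibre score, and in the high-fat lineage 0, with 0 to 1 without each animal. For the averaged grandpaternal diet 25 were called, with 38 at an offset of 64, 41 with a filter at the 50th percentile, 43 with trended robust eBayes, 252 with array weights, 66 over all probe sets and 1 with the slow-fibre score. It was 0 as deposited, with centred arrays, the array median, an offset of 1, the code number, neighbouring numbers or without the 2 lowest arrays, and 0 to 303 without each animal. In chow-fed females 1 gene was called, with 2 in a fit of those groups alone, 0 as deposited, with the array median, either offset, the code number or all probe sets, and 0 to 2 without each animal. In high-fat-fed females 0 were called, with 1 at an offset of 1, 6 with the fat cell score, 9 over all probe sets and 0 to 56 without each animal. For the interaction 0 were called, with 1 as deposited. The fits with a slow-fibre or fat cell score and all fits of the Lipe probe set 10705184 were chosen after seeing the data.

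The small uncalled differences of these genes changed sign under several settings, and the cause was not tested. With array quality weights they became -0.0086 for Abhd5 (the own diet in the high-fat lineage), -0.079 for Lipe (10705184) (the interaction). With arrays centred on their medians they became -0.0067 for Abhd5 (the grandpaternal diet in chow-fed females), 0.068 for Mgll (the grandpaternal diet in high-fat-fed females), 0.060 for Mgll and -0.040 for Lipe (10705184) (the interaction). With the array median as a covariate they became -0.00074 for Abhd5 (the own diet in the high-fat lineage), -0.029 for Plin2 (the averaged grandpaternal diet), -0.030 for Pnpla2 and 0.035 for Lipe (the grandpaternal diet in high-fat-fed females), -0.13 for Cidea and -0.00026 for Lipe (10705184) (the interaction). With the fat cell score as a covariate they became 0.0016 for Pnpla2 (the averaged grandpaternal diet), 0.0027 for Cidea (the grandpaternal diet in high-fat-fed females), -0.0022 for Lipe (10705184) (the interaction). With the slow-fibre score as a covariate they became 0.067 for Plin5 and 0.020 for Pnpla2 (the averaged grandpaternal diet), 0.0080 for Pnpla2 (the grandpaternal diet in chow-fed females), -0.058 for Lipe and -0.0023 for Lipe (10705184) (the interaction). With the values as deposited they became -0.085 for Plin4 and -0.048 for Mgll (the own diet in the chow lineage), 0.039 for Pnpla2 (the averaged grandpaternal diet), -0.029 for Mgll and -0.044 for Abhd5 (the grandpaternal diet in chow-fed females), 0.12 for Plin4 and 0.14 for Lipe and 0.24 for Mgll and 0.093 for Cidea (the grandpaternal diet in high-fat-fed females), 0.27 for Mgll (the interaction). With the code number as a block they became -0.026 for Mgll (the averaged grandpaternal diet), -0.027 for Plin5 and -0.010 for Pnpla2 (the grandpaternal diet in high-fat-fed females), -0.083 for Lipe and -0.036 for Cidea (the interaction). After the 2 dimmest arrays were dropped they became 0.058 for Plin2 (the own diet in the chow lineage), -0.056 for Plin2 and -0.0035 for Mgll (the averaged grandpaternal diet), -0.0016 for Plin5 and -0.017 for Pnpla2 (the grandpaternal diet in high-fat-fed females). Leaving out 1 animal in turn gave differences that crossed 0. For the grandpaternal diet in chow-fed females they ran from -0.012 to 0.031 for Abhd5, -0.0078 to 0.095 for Mgll. For the own diet in the high-fat lineage they ran from -0.023 to 0.031 for Abhd5. For the grandpaternal diet in high-fat-fed females they ran from -0.31 to 0.14 for Cidea, -0.28 to 0.043 for Lipe, -0.053 to 0.045 for Mgll, -0.10 to 0.32 for Plin5, -0.041 to 0.11 for Pnpla2. For the interaction they ran from -0.15 to 0.30 for Cidea, -0.10 to 0.22 for Lipe, -0.11 to 0.0075 for Mgll, -0.068 to 0.14 for Lipe (10705184). For the averaged grandpaternal diet they ran from -0.0092 to 0.042 for Mgll, -0.073 to 0.094 for Plin2, -0.057 to 0.017 for Pnpla2. For the own diet in the chow lineage they ran from -0.20 to 0.00013 for Plin2.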
